A study of Mus musculus with 84 samples.

Results

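Distal H3K4me1 regions of mouse adipocytes were compared between formerly obese mice (HC) and their age-matched chow controls (CC_s). The members are the H3K4me1 regions that lie away from coding promoters. Peaks of all 22 H3K4me1 libraries were merged into 70779 regions, of which 15965 lay within 2000 bp of a protein-coding transcription start site (TSS) and a further 28750 touched an H3K4me3 peak of any library. The remaining 26064 distal regions had a median width of 2067 bp, and 7504 of them (28.8%) were marked in at least 1 of the 6 libraries compared. All mice carried AdipoERCre, a tamoxifen-inducible Cre driven by the Adipoq promoter, and the NuTRAP reporter, which tags nuclei and ribosomes of the cells in which Cre has acted. Tamoxifen was given between 4 and 5 weeks of age and followed by a washout of 2 weeks. Labelled nuclei of epididymal fat, a depot of male mice, were used for CUT&Tag. There, an antibody against a histone mark recruits a transposase that inserts sequencing adapters nearby. HC mice received a high-fat diet for 12 weeks and then chow for 8 weeks. CC_s mice received chow throughout, and both groups were 26 weeks old at collection, with 3 H3K4me1 libraries in each. Because of the Adipoq promoter, only cells that expressed Adipoq at the time of tamoxifen, and their descendants, carry the label. Other diet groups are used for reference. C (chow) and H (high-fat diet for 12 weeks) mice were 18 weeks old, before weight loss, with 3 H3K4me1 libraries each. CC_l (chow, 2 libraries) and HH (high-fat diet for 25 weeks, 3 libraries) mice were 31 weeks old. CCC (chow, 2 libraries) and HHC mice (25 weeks of high-fat diet and then 8 weeks of chow, 3 libraries) were 39 weeks old. P-values measure the spread between these libraries.

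H3K4me1 is a methyl mark on the histone tail that is found at enhancers, the distal DNA elements through which transcription factors act on genes. An enhancer with H3K4me1 alone is called poised or primed, and one that also carries H3K27ac, an acetyl mark, is called active. H3K27me3 is deposited by Polycomb and accompanies silenced chromatin. In fat cells, PPARG, C/EBP factors and EBF factors are known to bind such elements. Enhancers may skip genes, so the nearest gene given here is an address and not a target.

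Sequences are shown for 5 of the 6 regions that were marked in all chow libraries of both ages and in no library of the obese or formerly obese mice of the 12-week cohort, because these regions carry the comparison across weight loss. The 2 gained regions of highest H3K4me1 signal in HC follow. Each is the 300 bases of GRCm38, plus strand, around the stretch of highest coverage, and capitals mark matches to the motifs described with the motif counts.
Lypd6b (chr2:49806091-49806390): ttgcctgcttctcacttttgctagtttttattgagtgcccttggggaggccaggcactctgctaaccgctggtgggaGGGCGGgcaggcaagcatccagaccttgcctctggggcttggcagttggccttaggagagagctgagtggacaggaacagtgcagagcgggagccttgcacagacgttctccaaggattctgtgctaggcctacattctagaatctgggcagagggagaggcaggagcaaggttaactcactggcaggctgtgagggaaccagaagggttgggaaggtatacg
Tenm4 (chr7:96523074-96523373): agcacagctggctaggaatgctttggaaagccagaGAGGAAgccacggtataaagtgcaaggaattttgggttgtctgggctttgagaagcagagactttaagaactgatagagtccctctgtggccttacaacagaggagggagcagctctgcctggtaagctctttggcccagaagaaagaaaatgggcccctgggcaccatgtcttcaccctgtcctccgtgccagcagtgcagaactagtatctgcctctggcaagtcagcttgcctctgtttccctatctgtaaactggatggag
Smoc1 (chr12:81091680-81091979): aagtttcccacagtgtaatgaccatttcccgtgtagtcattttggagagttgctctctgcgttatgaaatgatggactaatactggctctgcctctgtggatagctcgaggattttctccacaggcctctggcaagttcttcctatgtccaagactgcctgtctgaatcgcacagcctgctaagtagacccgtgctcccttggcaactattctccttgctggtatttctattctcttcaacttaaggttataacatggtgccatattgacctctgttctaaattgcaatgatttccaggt
Dio3 (chr12:110224330-110224629): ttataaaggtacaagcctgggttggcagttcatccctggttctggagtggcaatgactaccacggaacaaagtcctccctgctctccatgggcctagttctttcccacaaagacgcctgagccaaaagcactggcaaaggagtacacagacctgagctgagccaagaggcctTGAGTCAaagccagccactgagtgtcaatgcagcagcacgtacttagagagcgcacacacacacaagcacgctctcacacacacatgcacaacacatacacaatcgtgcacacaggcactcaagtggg
Mylk4 (chr13:32775918-32776217): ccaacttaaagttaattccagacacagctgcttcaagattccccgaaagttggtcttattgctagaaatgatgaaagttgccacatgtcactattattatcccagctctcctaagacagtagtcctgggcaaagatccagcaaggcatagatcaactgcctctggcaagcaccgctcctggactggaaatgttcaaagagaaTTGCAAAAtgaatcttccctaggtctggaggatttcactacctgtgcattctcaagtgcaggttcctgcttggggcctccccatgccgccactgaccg
Cdkal1 (chr13:29627479-29627778): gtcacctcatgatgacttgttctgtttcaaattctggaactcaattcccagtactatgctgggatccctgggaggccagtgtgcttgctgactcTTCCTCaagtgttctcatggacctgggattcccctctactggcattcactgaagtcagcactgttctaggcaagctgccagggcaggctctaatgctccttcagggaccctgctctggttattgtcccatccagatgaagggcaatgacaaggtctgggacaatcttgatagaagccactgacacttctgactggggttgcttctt
Mras (chr9:99389642-99389941): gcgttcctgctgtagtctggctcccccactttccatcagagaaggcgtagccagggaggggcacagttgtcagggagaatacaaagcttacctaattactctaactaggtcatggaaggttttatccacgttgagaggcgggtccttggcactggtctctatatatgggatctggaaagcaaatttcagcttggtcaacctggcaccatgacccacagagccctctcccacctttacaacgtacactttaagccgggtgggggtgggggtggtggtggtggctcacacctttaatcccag
The first 5 are lost regions and the last 2 are gained regions. In capitals, the Lypd6b window holds a KLF/SP match, the Tenm4 and Cdkal1 windows a PU.1 match, the Dio3 window an AP-1 match and the Mylk4 window a C/EBP match. The Smoc1 and Mras windows hold none of the 10 motifs searched.

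A region counted as marked wherever a library had a peak sharing 1 bp or more with it. CC_s replicates 1 to 3 marked 587, 1194 and 3430 distal regions, and HC replicates 1 to 3 marked 1322, 1367 and 3301. The groups overlapped. The difference of the mean log2 number was 0.44 (HC minus CC_s, exact 2-sided permutation test p = 0.6, adjusted p = 0.8 over 6 library measures, n = 3 each), and 3 against 3 libraries cannot give a p below 0.1. HC replicate 3 stood apart from the other libraries. Its peaks had a median width of 624 bp against 1088 to 1808 bp in the other 5, and 2942 of its 3301 distal regions (89.1%) were marked in no other of the 6 libraries. In the other 5 libraries that share was between 7.16% and 45.8%. The Jaccard index, the number of regions shared by a pair of libraries divided by the number marked in either, was between 0.01 and 0.04 for pairs with HC replicate 3 and between 0.14 and 0.26 for all other pairs.

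**Figure D1:**
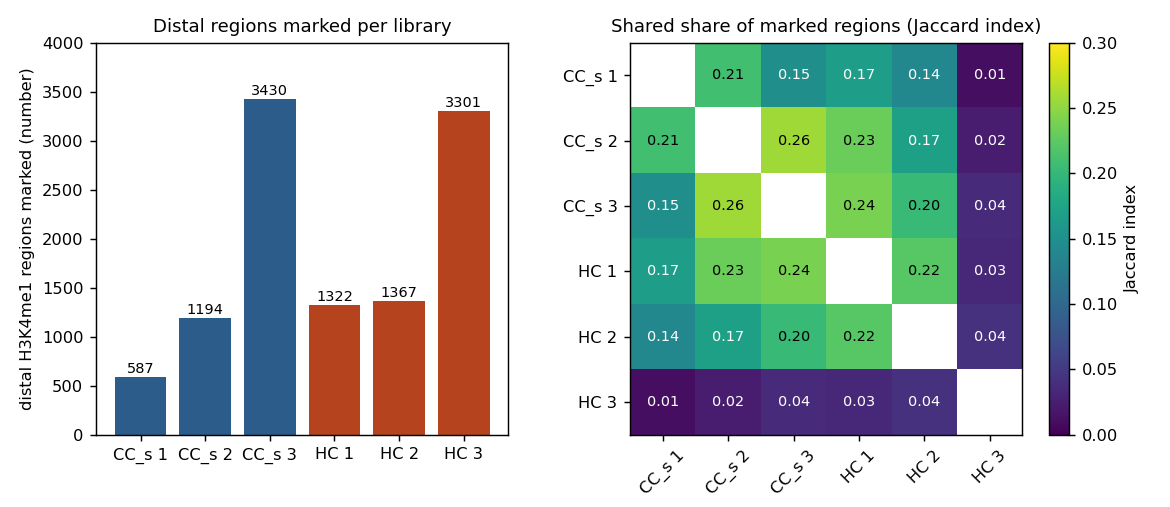
Bars give the number of distal H3K4me1 regions marked in each library, and the matrix gives the Jaccard index of each pair of libraries over distal regions. Replicate 3 of each group had the highest bar, and the row of HC replicate 3 lies at 0.04 or below.

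The labelled cell type was checked with H3K4me3 at the promoters of marker genes. Adipocyte markers had a peak at 9 to 10 of 10 promoters in CC_s libraries and at 7 to 9 of 10 in HC libraries. Adipoq, Plin1, Plin4, Cidec, Pparg, Lipe and Fabp4 were marked in 3 of 3 libraries of both groups. Lep and Retn were marked in 3 of 3 CC_s and 2 of 3 HC libraries, and Cfd in 1 of 3 and 0 of 3. The H3K4me3 library numbered HC replicate 3 also had peaks at 9 of 12 endothelial, 7 of 12 macrophage, 5 of 12 lymphocyte, 5 of 8 progenitor, 5 of 7 mural, 2 of 6 epithelial, 1 of 8 mesothelial and 2 of 6 neuron and Schwann marker promoters. The other HC libraries had 1 to 2, 2, 1, 3, 2 to 3, 0, 0 to 1 and 1 of the same lists. In CC_s libraries the ranges were 0 to 1, 1 to 3, 0 to 1, 0 to 3, 0 to 2, 0, 0 to 1 and 1. The endothelial marker Vwf, the macrophage marker Lyz2 and the mesothelial marker Msln had no H3K4me3 peak in any of the 6. Other markers differed. The endothelial Pecam1, Cdh5 and Kdr and the leukocyte gene Ptprc had a peak in 2 of 3 HC and 0 of 3 CC_s libraries. Among progenitor markers, Pdgfra had one in 3 of 3 HC and 1 of 3 CC_s libraries, Dpp4 in 3 and 0, and Dcn in 0 and 2. HC replicate 3 of H3K4me1 marked 5 of the 36 distal regions linked to endothelial markers, against 0 to 1 in the other 5 libraries, and 2 of 11 for lymphocyte and 1 of 12 for macrophage markers, against 0. The endothelial, lymphocyte and macrophage counts are near the 12.7% of all distal regions that this library marked. It also marked 3 of 8 progenitor, 2 of 7 mural, 2 of 7 neuron and Schwann and 1 of 4 mesothelial regions. These are higher shares, of few regions. In the other 5 libraries these counts were 0 to 2, 0 to 3, 0 to 1 and 0. HC replicate 3 marked 0 of 3 epithelial and 0 of 5 adipocyte regions. In the study's design the assays of a replicate came from the same fat sample, and whether the library numbers of different marks identify that sample was not tested. The part of other cell types in the results that follow was not tested.

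At 79 distal regions all CC_s libraries and no HC library had a peak (lost in HC), which is 0.303% of the 26064 regions. At 5 regions all HC libraries and no CC_s library had one (gained in HC), or 0.0192%. The lost regions were 26.1% of the 303 regions marked in 3 of 3 CC_s libraries, and the gained regions were 6.41% of the 78 marked in 3 of 3 HC libraries. Just outside the threshold, 102 regions were marked in 3 CC_s and 1 HC library and 383 in 2 and 0, against 34 and 158 in the opposite direction. Only 18 distal regions were marked in all 6 libraries.

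**Figure D2:**
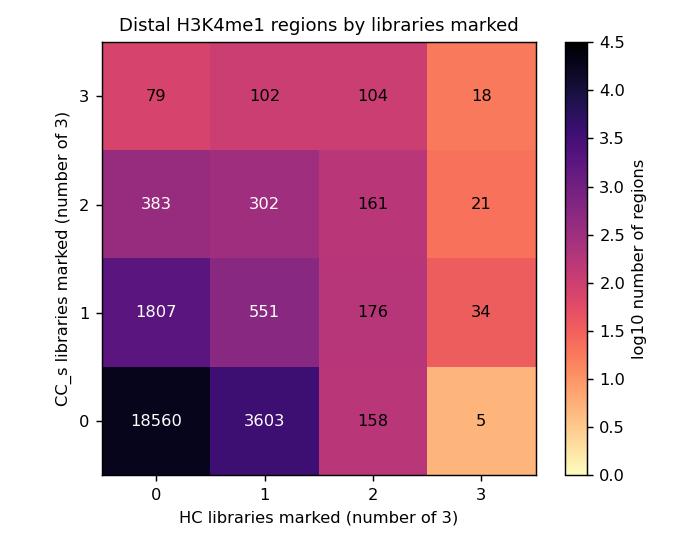
Each cell gives the number of distal H3K4me1 regions by how many CC_s libraries (vertical axis) and HC libraries (horizontal axis) marked them, coloured by its log10. The cell for 3 CC_s and 0 HC libraries holds 79 regions and the cell for 0 and 3 holds 5.

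The balance of lost against gained regions depended on the libraries used. Without HC replicate 3, 83 regions were lost (0.318%) and 67 gained (0.257%). Without HC replicate 1 the counts were 143 and 76, without HC replicate 2 they were 113 and 30, and without CC_s replicate 3 they were 82 and 36. Leaving out CC_s replicate 1, the library with the fewest peaks, gave 361 and 5, and leaving out CC_s replicate 2 gave 177 and 8. Without replicate 3 of both groups 86 were lost and 205 gained. With equal numbers of peaks in every library, 45 regions were lost, 22 of the 79 among them, and 7 were gained, 1 of the 5 among them. With the 50% of peaks of highest signal, 8 were lost, 1 of the 79 among them, and 0 gained. The gained regions are described below with and without HC replicate 3 because that library stood apart from the others. A region without a peak fell below the calling threshold of that library and is not shown to lack the mark.

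**Figure D3:**
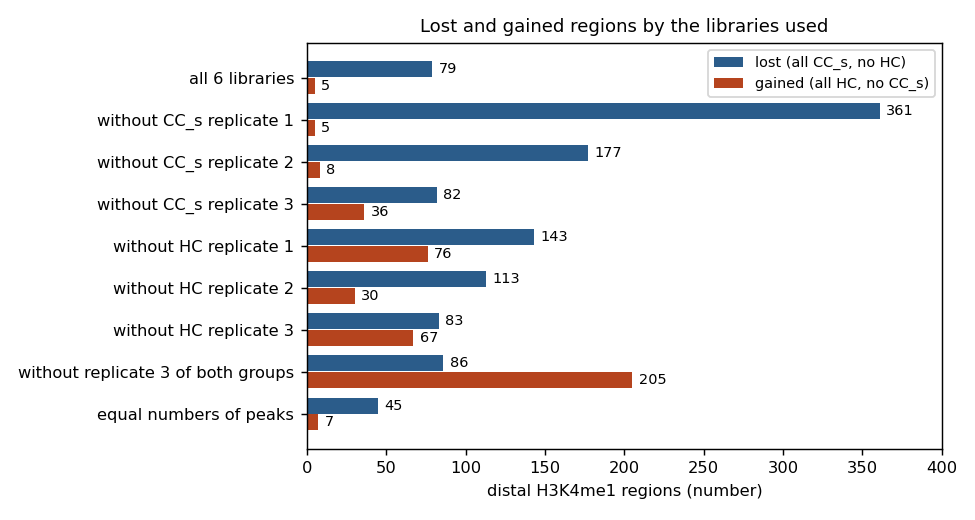
Blue bars give the number of lost regions and red bars the number of gained regions when all 6 libraries, fewer libraries or equal numbers of peaks were used. Lost regions range from 45 to 361 and gained regions from 5 to 205, and the bars for gained regions are longest where HC replicate 1 or 3 or both replicate 3 libraries are left out.

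All 5 gained regions were unmarked in 3 of 3 libraries of C. Single C libraries marked 3.89% to 4.38% of all distal regions, so most distal regions were unmarked there too. The region at chr13:29626787-29628943 lies in an intron of Cdkal1, which encodes a tRNA-modifying enzyme. Its peaks stood at percentiles 45.1, 53.1 and 51.9 of total signal among all peaks of HC replicates 1 to 3, so all were near the middle of their libraries. It was marked in 2 of 3 H libraries. The region at chr9:99385918-99391978 overlaps an exon of Mras, a Ras-family GTPase, and its percentiles were 67.6, 34.3 and 30.6. It was marked in 2 of 3 H libraries too. The region at chr6:83398593-83401547 lies in an intron of Tet3, an enzyme that oxidises methylated cytosine, with percentiles of 23.7, 0.40 and 53.6, and was marked in 0 of 3 H libraries. The other 2 lie between genes. The one at chr2:148560267-148565860 is 106741 bp from Nxt1, a factor of mRNA export, and was marked in 2 of 3 H libraries. Its percentiles were 1.14, 8.68 and 67.2, so its peaks in HC replicates 1 and 2 were among the weakest of those libraries. The one at chrX:53709291-53713405 is 11421 bp from 4930502E18Rik and was marked in 1 of 3 H libraries, with percentiles of 49.5, 15.0 and 22.2. Every gained region was also marked in at least 1 library of the older chow groups CC_l and CCC, which came from mice that never received the high-fat diet.

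Of the 79 lost regions, 6 were also marked in 3 of 3 C and 0 of 3 H libraries, that is 7.59% of the lost regions and 5.94% of the 101 regions lost in H (0.388% of all distal regions). These 2 comparisons share no library. No gained region was among the 115 gained in H (0.441%). The 6 regions without a peak in any H or HC library lie near genes of several kinds. The Smoc1 region (chr12:81089737-81094223) is intronic, and Smoc1 encodes a secreted calcium-binding matrix protein. Its peaks reached percentiles of 80.2, 18.8 and 65.1 in CC_s replicates 1 to 3. H3K27ac was called there in 3 of 3 C and 1 of 2 CC_s libraries but in no H or HC library, and 1 of 3 HC libraries had H3K27me3. The Mylk4 region (chr13:32774223-32777364) lies in an intron of a myosin light chain kinase gene, 4352 bp from a TSS, with percentiles of 42, 52.4 and 51.1. It had H3K27ac in 2 of 3 C and 2 of 2 CC_s libraries and in no H or HC library. At both regions H3K27ac, like H3K4me1, was called in chow groups and not in H or HC.

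The Tenm4 region (chr7:96522037-96525960) is intronic, in the gene of a teneurin, a transmembrane adhesion protein, with percentiles of 17.4, 17.4 and 45.9. It had H3K27ac in 2 of 3 C and 2 of 2 CC_s libraries and in no H or HC library. A pair of further lost regions lie in the same gene. The one at chr7:96551149-96555123 was marked in 2 of 3 C and 0 of 3 H libraries, with H3K27ac in 2 of 3 C, 2 of 2 CC_s and no H or HC library. The one at chr7:96722733-96725988 was marked in 3 of 3 C and 1 of 3 H libraries and had no H3K27ac in those 4 groups. Tenm4 was the gene nearest to 3 lost regions and Zfat, a zinc finger gene, to 2. No other gene was nearest to more than 1.

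The Lypd6b region (chr2:49804807-49807576) is intronic, in a gene of the Ly6 family, with percentiles of 43.2, 46 and 52.6, the most even of the 6. It had H3K27ac in 1 of 2 CC_s libraries and in no C, H or HC library, and H3K27me3 in 1 of 3 HC libraries. The Dio3 region (chr12:110223156-110229041) lies 50027 bp from Dio3, the imprinted gene of the deiodinase that inactivates thyroid hormone, with percentiles of 60.6, 44.3 and 42.2. The Gclc region (chr9:77848187-77851019) lies 53702 bp from Gclc, which encodes the catalytic subunit of the first enzyme of glutathione synthesis, with percentiles of 11.6, 46.6 and 55.4. H3K27ac was found at it in 3 of 3 C libraries and in no H, CC_s or HC library. At Dio3 it was found in 2 of 3 C and 1 of 2 CC_s libraries. In the 25-week cohort the 6 regions were marked in 2 of 2 CC_l libraries and, apart from the Gclc region with 1, in 2 of 2 CCC libraries. HH libraries marked the Lypd6b region in 2 of 3 and the other 5 in 0 of 3, and HHC libraries marked the Gclc region in 0 of 3 and the other 5 in 1 of 3.

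The lost region with the strongest peaks over CC_s lies in an intron of Rora (chr9:68689055-68691893), a nuclear receptor of the circadian clock and lipid metabolism. Its percentiles were 51.6, 58.4 and 59.3, and it had H3K27ac in 2 of 2 CC_s and 0 of 3 HC libraries. C libraries marked it in 1 of 3 and H libraries in 0 of 3. Next came an intron of Fbxw8, a subunit of a ubiquitin ligase (mean percentile 56.0, marked in 3 of 3 C and 2 of 3 H). Smoc1 (54.7) and Fam160a1 (53.3) followed. The other strong lost regions were nearest to Fbxo8 (50.4), Cadps (49.8), Dio3 (49.0), Mylk4 (48.5), Kif26a (47.9), Lypd6b (47.3), Fam76b (46.5), Tenm4 (46.1), Kcna1 (44.7), Cfdp1 (43.1) and Adcyap1r1, the receptor of the neuropeptide PACAP (42.7). No lost region reached a mean percentile above 56.4, and the lowest, at Mbnl1, stood at 4.29. All 79 were therefore of low or middle strength. In CC_s replicates 1 to 3 the median percentile of the lost regions was 17.4, 27.4 and 40.7, against 23.2, 22.6 and 23.8 for the other distal regions marked in the same libraries. For the 102 regions marked in 3 CC_s and 1 HC library it was 27.9, 35.2 and 53.8, higher than for the lost regions in each library. In CC_s replicate 1, 24 of the 79 lay under the 10th percentile.

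Other lost regions lay in genes on the lists of pathways, 3 of them in introns. Gpd2, the mitochondrial glycerol-3-phosphate dehydrogenase, held one at chr2:57273080-57276811 that was marked in no C or H library. Mitf, a factor that acts on lysosomal genes, held one at chr6:97836748-97839039 that was marked in 2 of 3 C and 0 of 3 H libraries. The one in Vdr, the vitamin D receptor (chr15:97877898-97880254), was marked in 1 of 3 C and 0 of 3 H libraries. The lost region at Col6a1, a chain of collagen VI (chr10:76707999-76709844), overlapped an exon and was marked in 0 of 3 C and 1 of 3 H libraries. These 4 differed in their state before weight loss, and only the Mitf region showed most C libraries marked and no H library.

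By position, 35 of the 79 lost regions were intronic (44.3%), 12 overlapped an exon (15.2%) and 32 lay between genes (40.5%), against 47.5%, 14.6% and 37.9% of all distal regions. Of the 5 gained regions, 2 were intronic, 1 overlapped an exon and 2 lay between genes. A protein-coding gene lay within 20000 bp of 53 lost regions (67.1%) and 4 gained regions, against 74.9% of all distal regions. Lost regions were wider than distal regions in general (median 3069 bp against 2067 bp), but the 303 regions in 3 of 3 CC_s libraries, from which they come, had a median of 3317 bp. Their median GC content was 43.6% against 45.1% for all distal regions and 43.9% for the 303 regions. They were spread over 19 chromosomes, with 8 on chromosome 1 and 7 on chromosome 6.

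The lost regions were then read in libraries that had no part in the calls. C libraries marked 50.6%, 49.4% and 49.4% of the 79, and H libraries 10.1%, 13.9% and 39.2%. The groups did not overlap, with means of 49.8% ± 0.73 and 21.1% ± 15.8 (SD, n = 3 each). Over all distal regions the order was the opposite, 4.06% in C and 9.22% in H. In the 25-week cohort, CC_l libraries marked 73.4% and 96.2% and HH libraries 5.06%, 36.7% and 59.5%, and after weight loss CCC libraries marked 77.2% and 98.7% and HHC libraries 12.7%, 73.4% and 15.2%. Every chow library was above every library of mice of the same age that had received the high-fat diet. Over all distal regions the means were 19.3% in CC_l and 17.7% in HH, and 17.4% in CCC and 24.6% in HHC. There the groups of each of these ages overlapped. Every comparison has its own control libraries. The 224 other regions marked in 3 of 3 CC_s libraries give a reference. C libraries marked 67.4%, 71.0% and 73.2% of these and H libraries 40.6%, 37.1% and 74.6%, so the same order held for 2 of 3 H libraries. In the other ages CC_l libraries marked 92.9% and 98.7% of the 224 and HH libraries 11.2%, 72.3% and 88.8%, without overlap, and CCC libraries 91.5% and 100% and HHC libraries 29.5%, 92.4% and 25.4%, with overlap. Lower shares in mice that had received the high-fat diet were therefore not particular to the lost regions. Among the lost regions 51 of 79 (64.6%) were marked in fewer H than C libraries, against 54.0% of the 224 and 5.40% of all distal regions. With 83 lost regions called without HC replicate 3, the means were 49.0% in C and 22.5% in H. With equal numbers of peaks in all H3K4me1 libraries, the difference of H minus C at the 79 regions went from -28.7 to -16 percentage points. That of HH minus CC_l went from -51.1 to -20.5 and that of HHC minus CCC from -54.2 to -25.9.

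**Figure D4:**
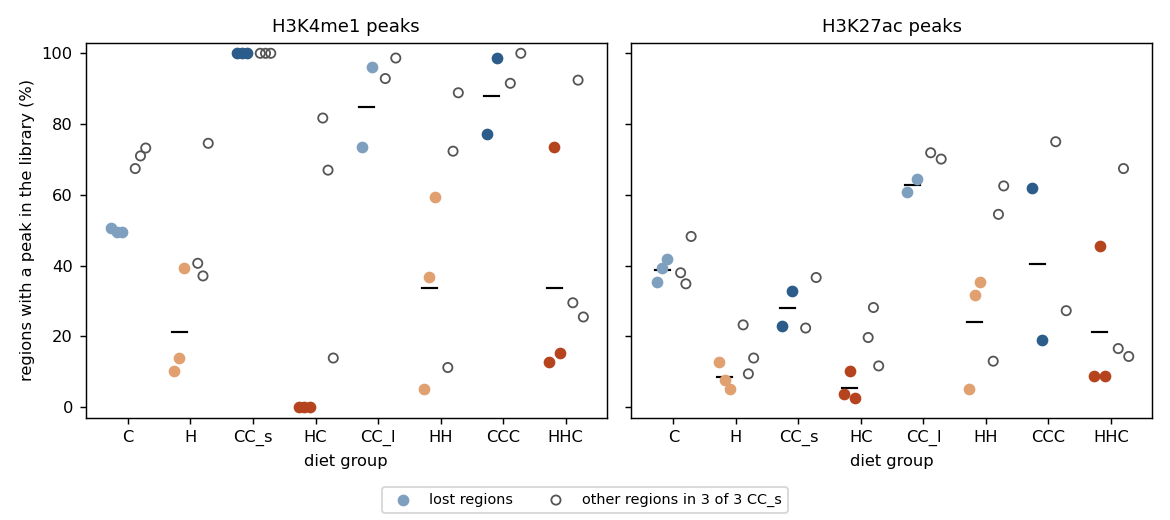
Filled points give the share of the 79 lost regions with an H3K4me1 peak (left) or an H3K27ac peak (right) in each library, horizontal bars the group means, and open points the share of the 224 other regions marked in 3 of 3 CC_s libraries. H3K4me1 in CC_s and HC is fixed by the calls, and at the other ages the filled H3K4me1 points of chow groups lie above those of the diet groups of the same age. For H3K27ac the filled points of CCC and HHC overlap.

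Single lost regions differed in their history. Of the 79, 21 were marked in 3 of 3 C libraries, 18 in 2, 19 in 1 and 21 in none. H libraries marked 39 in none, 30 in 1, 10 in 2 and 0 in all 3. After the longer diet, 61 were marked in 2 of 2 CCC libraries, and 12 of these in 0 of 3 HHC libraries. The 12 are 15.2% of the lost regions and 2.11% of the 570 regions with that pattern among all 26064 distal regions. At 31 regions no HH library had a peak, and 20 of these were marked in 2 of 2 CC_l libraries. The 20 are 25.3% of the lost regions and 2.24% of the 891 regions with that pattern among all 26064 distal regions. Only 2 of the 79 were marked in 3 of 3 HHC libraries, at Hibadh and Svil.

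**Figure D5:**
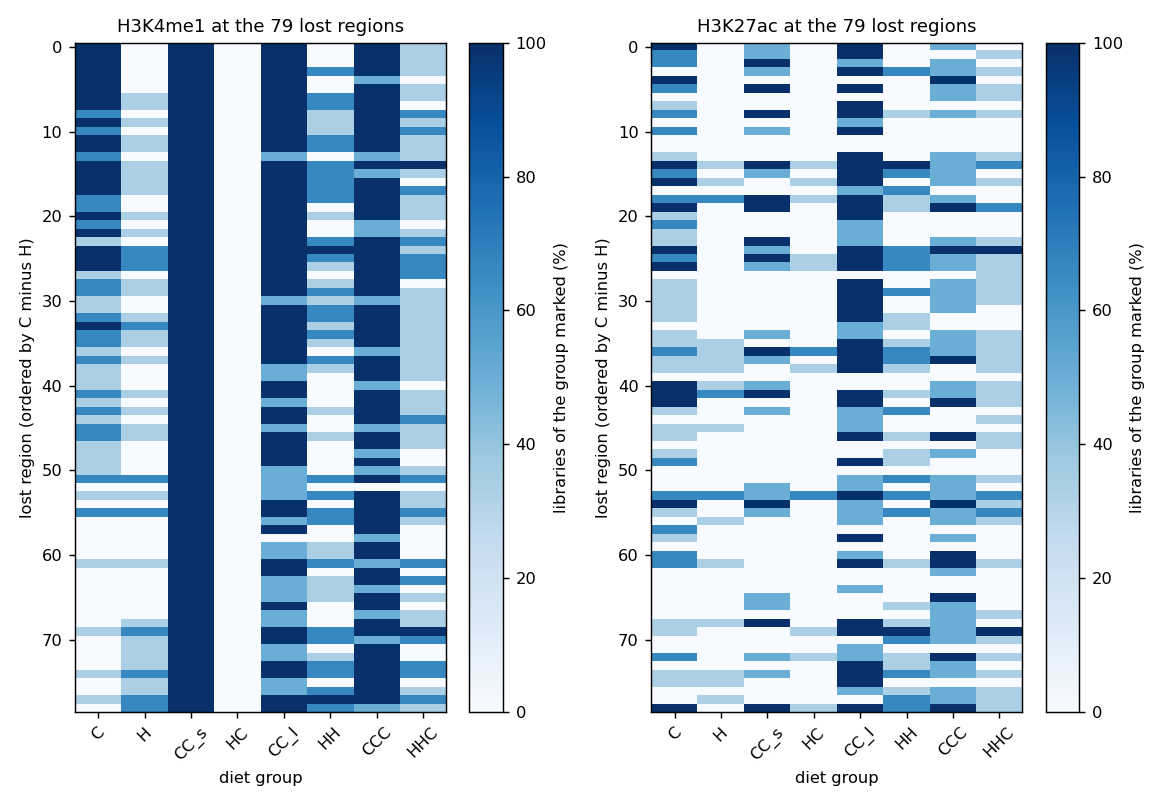
Each row is a lost region, ordered by the number of C minus H libraries with H3K4me1, and shading gives the share of libraries of each diet group with an H3K4me1 peak (left) or an H3K27ac peak (right). Columns CC_s and HC of the left panel are fixed by the calls, and there each chow column (C, CC_l, CCC) is darker on average than the diet column of the same age (H, HH, HHC).

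H3K27ac was found at 22.8% and 32.9% of the lost regions in CC_s and at 3.80%, 10.1% and 2.53% in HC. It was measured in separate libraries, but in the study's design both marks came from the same fat samples. In HC and CC_s the H3K27ac shares are therefore not independent of the H3K4me1 calls. The groups did not overlap, and the means were 27.8% ± 7.16 (SD, n = 2) and 5.49% ± 4.07 (SD, n = 3). Over all distal regions the shares overlapped, with 1.69% ± 0.65 in CC_s and 3.33% ± 3.12 in HC (difference 1.65 percentage points, exact 2-sided permutation test p = 0.8, adjusted p = 0.8). That difference became -0.11 without HC replicate 3. Before weight loss, C libraries had H3K27ac at 35.4%, 39.2% and 41.8% of the lost regions and H libraries at 12.7%, 7.59% and 5.06%, without overlap. Over all distal regions the means were 2.96% in C and 2.15% in H, with overlap. The H3K27ac libraries held 21627, 22673 and 25076 peaks in C and 26649, 18227 and 12174 in H. At 39 weeks the groups overlapped, with 62% and 19% in CCC and 8.86%, 45.6% and 8.86% in HHC. The 224 reference regions had H3K27ac at 37.9%, 34.8% and 48.2% in C and 23.2%, 9.38% and 13.8% in H, again without overlap, and at 22.3% and 36.6% in CC_s and 19.6%, 28.1% and 11.6% in HC, with overlap. With equal numbers of peaks in all H3K27ac libraries, the differences shrank to -7.17 percentage points for HC minus CC_s and to -3.80 for H minus C. At 8 of the 79 regions both CC_s libraries and no HC library had H3K27ac, a pattern found at 84 distal regions in all. These include Pld1, which encodes a phospholipase D (chr3:28096942-28100271), where C libraries had H3K27ac in 3 of 3 and H libraries in 0 of 3, although no C or H library had H3K4me1 there. At 21 lost regions none of the C, H, CC_s and HC libraries had H3K27ac. H3K27me3 was found at 3 of the 79 in any HC or CC_s library and at a mean of 0% in CC_s and 1.27% in HC, against 3.35% and 2.73% of all distal regions. Of the 5 gained regions, 3 had H3K27ac in at least 1 HC library and none in CC_s, namely Mras, Cdkal1 and the region near 4930502E18Rik.

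Without HC replicate 3, 67 regions were marked in both remaining HC libraries and in no CC_s library. Of these, 59 were marked in 0 of 3 C libraries. Most distal regions were unmarked there too, since single C libraries marked 3.89% to 4.38% of all distal regions. H libraries marked 36.8% ± 5.24 of the 67 and C libraries 4.98% ± 4.31 (SD, n = 3 each), with no overlap of the groups. Over all distal regions H was also above C without overlap (9.22% against 4.06%). At the older ages the means for the 67 were 48.5% in CC_l, 59.2% in HH, 47.8% in CCC and 46.8% in HHC, so older mice that never received the high-fat diet marked many of them and HHC was not above CCC. At 9 of the 67 all H and no C library had a peak, which is 13.4% of these regions and 7.83% of the 115 gained in H. These 9, named after their values were seen, lie in Jpt2 (chr17:24950754-24953873), Gcnt2, Msi2, Setbp1, Nos1ap, Unc5d, Aig1 and Myom1 and 7340 bp from Map4k3. Msi2 encodes an RNA-binding protein, Map4k3 a kinase of nutrient signalling and Myom1 a sarcomere protein. The Jpt2 region had the highest mean percentile of the 67 in HC replicates 1 and 2, at 55.7. Aig1, a hydrolase of fatty acid esters of hydroxy fatty acids, held an intronic lost region (chr10:13813534-13814933) and, in this set, an intronic gained one (chr10:13714471-13718733). H3K27ac was found at 8.96% ± 5.17 (SD, n = 3) of the 67 regions in HC and at 1.49% in each of 2 CC_s libraries, against 3.33% and 1.69% of all distal regions, and 57 of the 67 lay within 20000 bp of a gene.

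The pathway lists were read at regions that differed by at least 2 libraries, since few list genes had a lost or gained region. Of all distal regions, 564 (2.16%) were marked in at least 2 fewer HC than CC_s libraries and 197 (0.756%) in at least 2 more. Among the 19510 regions within 20000 bp of a gene the shares were 1.95% and 0.85%. CC_s replicates 1 to 3 marked 282, 466 and 561 of the 564, and HC replicates 1 to 3 marked 64, 34 and 4. Nearly all fewer-marked regions were thus marked in CC_s replicate 3 and unmarked in HC replicate 3. Of the 197, HC replicates 1 to 3 marked 126, 172 and 135, and CC_s replicates 1 to 3 marked 0, 3 and 31. Adipogenic factors and nuclear receptors had 10 fewer-marked and 2 more-marked of 211 linked regions (4.74% and 0.95%), the highest number among the lists given here but not the highest share, which in pathway lists was 6.25% for 32 thermogenic and mitochondrial regions. The 10 lie in Rora, Vdr, Esr1, Thrb and Ncoa2, in Nfia and Ebf1 with 2 each, and in Meis1. Ebf1 encodes an adipogenic transcription factor, and both of its regions were marked in 2 of 3 CC_s and 0 of 3 HC and H libraries. The Esr1 region lies in the gene of the estrogen receptor. It had H3K4me1 in 2 of 3 libraries of both chow groups (C and CC_s) and in none of H and HC. H3K27ac was called in 2 of 2 CC_s and 0 of 3 HC libraries there and at Rora. At the Nfia regions it was called in 0 of 2 and 1 of 2 CC_s and in 1 of 3 and 2 of 3 HC libraries. At 1 Ebf1 region it was called in 0 of 2 CC_s and 1 of 3 HC libraries. The other Ebf1 region and those of Vdr, Thrb, Ncoa2 and Meis1 had no H3K27ac in either group. The regions of Zfp423 and Rarb had H3K4me1 in more HC than CC_s libraries.

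In the other lists the numbers were small. Fewer HC libraries marked 5 of 185 extracellular matrix regions (Col6a1 with 2, Sparc, Hapln1 and Adamts17) and more marked 1 (Loxl2). Lysosome genes had 3 fewer of 55 (Mitf, Laptm4b, Lamp2), thermogenic and mitochondrial genes 2 of 32 (Gpd2, Nrf1), lipolysis and adrenergic signalling 2 fewer and 1 more of 65, TGF-beta and Wnt genes 2 fewer and 1 more of 117, lipid synthesis and storage 1 fewer of 39 (Me1, the cytosolic malic enzyme), and insulin and growth factor signalling 1 fewer of 167 (Tbc1d4, a regulator of GLUT4 traffic). None of the 77 inflammatory and 19 circadian clock regions differed by 2 libraries. Only 12 of the 77 and 2 of the 19 had a peak in any of the 6 libraries, so few of them could differ. Among the cell type lists, Dpp4 of the progenitor markers had 1 fewer-marked of 8 regions and Myh11 of the mural markers 1 more-marked of 7. None of 5 adipocyte, 12 macrophage, 11 lymphocyte, 36 endothelial, 4 mesothelial, 3 epithelial and 7 neuron and Schwann regions differed by 2 libraries. In the same order, only 0, 1, 2, 6, 1, 0 and 3 of these regions had a peak in any of the 6 libraries. For just 1 of the 10 adipocyte marker genes was any distal region linked to it.

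Motifs were searched on both strands in the 300 bases at the strongest H3K4me1 stretch of each region. The 79 lost regions are among the 564 fewer-marked ones, and 18560 of the 26064 regions were marked in neither HC nor CC_s. Motifs were not counted for the 303 regions marked in 3 of 3 CC_s libraries. C/EBP (TTGCNNAA) was found in 21 of the 79 lost windows (26.6%), in 149 of the 564 fewer-marked windows (26.4%) and in 16% of all 26064 windows. In the more-marked windows it was found in 16.2%, and in 0 of the 5 gained ones. AP-1 (TGANTCA) was found in 4 lost windows (5.06%), in 11.9% of the fewer-marked windows, in 15.7% of the more-marked windows and in 12.2% of all, so the lower share of the 79 was not found among the 564. PU.1 (GAGGAA) was found in 25 lost windows (31.6%), 27.5% of the fewer-marked and 29.8% of all. The EBF motif and the glucocorticoid receptor motif were each found in 4 lost windows (5.06%), in 2.48% and 1.95% of the fewer-marked windows and in 1.25% and 1.09% of all. The pair of PPAR core sites was in 3 (3.80%, against 1.01%), and 1 of these, at Fam160a1, was the full PPAR-RXR DR1, which is contained in the looser pattern (1.27%, against 0.12%). E-box (CACGTG) was in 1 lost window and KLF/SP (GGGCGG) in 2, against 4.29% and 4.25% of all, and the NF1 palindrome was in none, against 0.05%. These shares are descriptions of letters in a window and carry no test.

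Relative signal was compared at the 18 distal regions marked in all 6 libraries, as log2 total peak signal centred on each library's median. With limma and Benjamini-Hochberg adjustment 0 of 18 passed an adjusted p of 0.05 (0%), and 1 had an unadjusted p under 0.05. That region, in Aff1, an elongation factor gene (chr5:103803202-103811508), had 0.29, 0.12 and 0.16 in HC and -0.43, -0.53 and -0.36 in CC_s, a difference of 0.64 ± 0.27 (log2, SE, adjusted p = 0.679). The HC libraries lay above the CC_s libraries there. At Nr3c1, the gene of the glucocorticoid receptor, the difference was 0.79 ± 0.50 (adjusted p = 0.837), and at Lpp, a focal adhesion gene, it was -0.82 ± 0.52 (adjusted p = 0.837), and in both genes the groups overlapped. When 3645 H3K4me1 regions marked in all 6 libraries were fitted together, promoter regions included, 0 passed and 406 had an unadjusted p under 0.05.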

How the data were processed

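Peak lists of 84 CUT&Tag libraries were used, 1 per library. Per the labels and the study's methods, the authors trimmed reads (Trim Galore 0.6.6), aligned them to GRCm38 (Bowtie2 2.4.4, SAMtools 1.13), made coverage (bedtools 2.30) and called peaks per library with SEACR 1.3 in stringent mode (threshold 0.01), without pooling. Their methods also remove peaks in blacklisted regions, but a mitochondrial peak and a peak at a high-signal satellite of chromosome 2 were found in each of the 84 deposited lists, which had therefore probably not been through that step. No blacklist was used here. The deposited values are signal, the unscaled coverage summed over a peak and its maximum, so strength was expressed as percentile within a library. Read depth is unknown and no count test was possible. Mean coverage within peaks was 7.62 to 30.9 over the H3K4me1 libraries. Groups came from sample titles. TSSs were those of 21851 protein-coding genes (GENCODE basic), and sequences came from RefSeq GRCm38. Genes were linked within 20000 bp. Python 3.11.15 and limma 3.58.1 were used, and scripts were tested on simulated data. Named regions were all gained ones, lost ones also lost in H, the 15 lost ones of highest mean percentile in CC_s and those linked to listed genes (9 cell type and 11 pathway lists). Results of 1 pathway list and the sequence of 1 region are not reported here. Members, lists and tests were chosen with earlier results of these data known. Alternatives covered overlap, peak numbers and strength, region definition, TSS distance, libraries and signal scaling. Leaving out each library was planned. The description of the sets without HC replicate 3, the set without both replicate 3 libraries, the sets that differ by at least 2 libraries and the fit over 3645 regions were added after seeing the data.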

Additional observations from a re-analysis of the deposited data

How the results depend on the processing

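The number of lost regions (79) was 45 with equal numbers of peaks, 8 with the 50% of peaks of highest signal (1 of the 79 among them) and 272 when only H3K4me3 peaks of HC and CC_s excluded regions, and it ranged from 82 to 361 with 1 library left out. It was 67 with 25% coverage, of which 56 of the 79 were kept, 104 with regions merged from the 6 libraries alone and 76 at 5000 bp from a TSS. The number of gained regions (5) was 2 with 25% coverage, 0 with the 50% of peaks of highest signal, 16 with regions of the 6 libraries alone, 70 with H3K4me3 peaks of HC and CC_s alone and 205 without replicate 3 of both groups, and 5 to 76 with 1 library left out. The log2 difference in the number marked ranged from -0.16 (without CC_s replicate 1) to 1.12 (without CC_s replicate 3) with 1 library left out. The H3K27ac difference over all distal regions ranged from -0.11 to 2.89 percentage points. With equal numbers of peaks, the share of gained regions marked changed from -6.67 to 16.7 percentage points (HH minus CC_l) and from -20.0 to 10.0 (HHC minus CCC). With the replicate number as a block, 0 of 18 regions were called in relative signal, and 0 had an unadjusted p under 0.05, and no other setting called any. Deviations of same-numbered libraries from their group means correlated at -0.16, -0.07 and -0.18 over distal regions, and at -0.03, -0.06 and -0.04 in signal. Such deviations cancel within each group of 3 libraries, so these values cannot settle whether the numbers pair the libraries. The cause of these changes was not tested. Depth is unknown, and 3 libraries a group limit every comparison.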
